A study of Drosophila melanogaster with 36 samples.

Results

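Hr38 and stripe (sr) are a pair of transcription factor genes known for their rapid induction by activity in fly neurons, and they were examined here as 2 of the 12842 genes in the head table. They were selected on measured values, with the head table as the main source, and the comparison that led to the choice is not recorded. All of their head values are therefore given as a description, with no test, and tests are given for the fat body and the ovaries. Head, fat body and ovaries were dissected from each female, so the other tissues are no independent check on the head. Adult females of Drosophila melanogaster had been reared as larvae on 120% sugar-yeast-agar (SYA) medium (H females) or on 100% SYA (M females), and had then shared a common adult diet. Females were sampled after 60% (RNA-2) or 10% (RNA-1) of their cohort had died. Messenger RNA was sequenced from head, fat body (the abdomen without gut and ovaries) and ovaries, with 3 libraries for each of H RNA-2, H RNA-1, M RNA-2 and M RNA-1 in each tissue and 36 libraries in all. Each library came from a pool of 11 or 12 females. For H females the replicate numbers sequenced differed in part between head and the other tissues, so not every pool need have been sequenced in all tissues. The time points were set by mortality, so RNA-1 and RNA-2 females need not have had the same age in days on both diets.

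Immediate-early genes are switched on within minutes of a stimulus by transcription factors that are already present in the cell, and they carry short bursts of calcium, cyclic AMP and ERK kinase signalling into longer changes in transcription. In mammals the NR4A nuclear receptors and the EGR zinc finger factors are classic members of this class. Hr38 encodes the fly member of the NR4A family and sr encodes an EGR-type zinc finger factor, and transcripts of both are used as markers of recent neuronal activity in flies. Both also have roles outside neurons: stripe directs the formation of tendon cells, which anchor muscle to cuticle, and Hr38 acts in cuticle formation and glycogen metabolism and can pair with the receptor usp.

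Hr38 (FBgn0014859) lies on the minus strand of chromosome 2L, at positions 20683462 to 20714588 of the BDGP6.54 assembly, with 2 annotated transcripts, the canonical one having 5 exons and 7704 bases. A pair of long noncoding RNA genes lies within it on the opposite strand, outside its exons. Its exons overlap those of CG2617 on the opposite strand by 168 bases. The libraries were stranded, but the labels and methods read here do not say whether the counting used strand. The sr gene (FBgn0003499) lies on the plus strand of chromosome 3R, at positions 18090803 to 18135583, with 5 annotated transcripts, the canonical one having 5 exons and 5757 bases. The only annotated genes that overlap it are a pair of tRNA genes outside its exons.

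Values are normalized counts, which are estimated reads per gene divided by a size factor for each library. Library totals after normalization ran between 54372784 and 75354692 over the 36 libraries. In head, M RNA-1 replicates 1 and 3 stood apart: their deviations from the gene means fell with transcript length across 11116 genes (r = −0.38 and −0.47), against r between 0.00 and 0.21 in the other 10 head libraries. Both genes have long transcripts, so the head values are also given with this trend removed and without both libraries. In fat body, RNA of 6 ovary markers varied between libraries, and their summed level was highest in replicates 1 and 3 of H RNA-2, at 12065 and 12567 normalized counts, against 312 to 7808 in the other 10. Each tissue was normalized on its own, so no test was made between tissues.

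In the heads of H females Hr38 was lower at RNA-2 than at RNA-1. It had 471, 620.3 and 578 normalized counts in the H RNA-2 libraries, against 1117, 1519.8 and 1529 in H RNA-1. In the heads of M females the order was reversed, with 697, 825 and 960.4 normalized counts in the M RNA-2 libraries, against 416, 567 and 352 in the M RNA-1 libraries. Neither pair of groups overlapped. H RNA-1 heads had the highest level of the 4 groups, with a mean (SD, n = 3 here and below) of 1389 (235), then M RNA-2 heads with 827 (132), H RNA-2 heads with 556 (77.0) and M RNA-1 heads with 445 (110.2). The lowest groups in that order, H RNA-2 and M RNA-1, overlapped and the other neighbours did not. On the log2(value + 1) scale the difference between RNA-2 and RNA-1 was −1.31 in H females (SE 0.19) and 0.91 in M females (SE 0.19). The difference between those changes, H minus M, was −2.22 (SE 0.27). Set against M females, H females had 1.65 more log2 units of Hr38 at RNA-1 (SE 0.19) and a difference of −0.57 at RNA-2 (SE 0.19), again with no overlap at either time.

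The head values of sr showed the same signs at a smaller size. The H RNA-2 libraries had 712, 756 and 844 normalized counts of sr, against 865, 1034 and 1129.7 in H RNA-1. The M RNA-2 libraries had 1143, 1134 and 1081, against 540.1, 899.9 and 485 in the M RNA-1 libraries. The groups did not overlap within either diet, although H RNA-2 replicate 4 and H RNA-1 replicate 1 were close, and M RNA-1 replicate 2 stood well above the other M RNA-1 libraries. The mean (SD) was 771 (67.4) in H RNA-2 heads, 1009 (134) in H RNA-1 heads, 1119 (33.3) in M RNA-2 heads and 642 (225) in M RNA-1 heads. The log2 difference between RNA-2 and RNA-1 was −0.38 in H females (SE 0.19) and 0.86 in M females (SE 0.19). H minus M change was −1.24 (SE 0.27). H females differed from M females by 0.70 at RNA-1, where the groups overlapped, and by −0.54 at RNA-2, where they did not (SE 0.19 each). In the order of levels, M RNA-2 overlapped H RNA-1 and H RNA-2 overlapped M RNA-1.

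**Figure D1:**
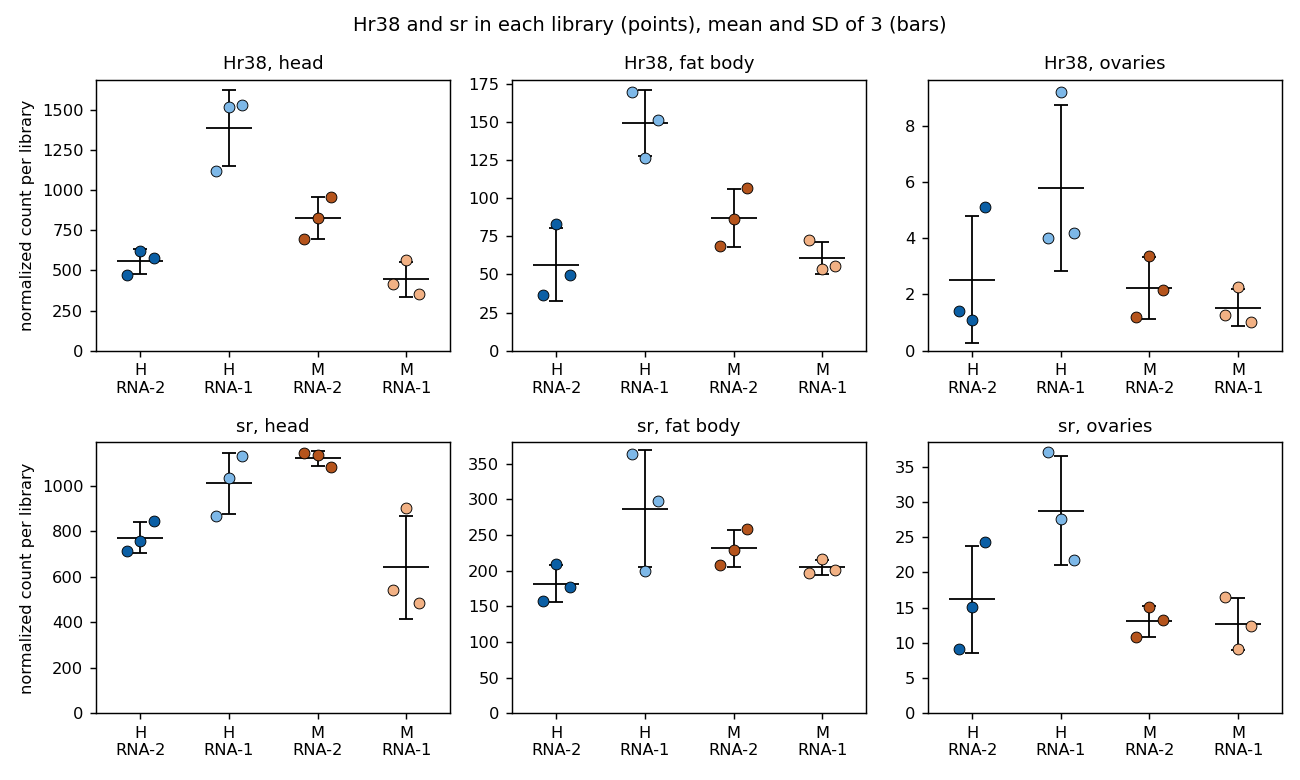
Normalized counts of Hr38 (top) and sr (bottom) in head, fat body and ovaries, with 1 point per library and bars for the mean and SD of 3 libraries; each panel has its own linear axis starting at 0. H RNA-1 stands highest for Hr38 in head (1117 to 1529) and fat body (127 to 169.7), while in head the sr values of M RNA-2 (1081 to 1143) overlap those of H RNA-1.

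With the length trend removed, the H change of Hr38 in head was −1.30 (SE 0.12) and its M change 0.38 (SE 0.12), and the H minus M change was −1.68. Without M RNA-1 replicates 1 and 3, the M change rested on the lone M RNA-1 replicate 2 and was 0.53 (SE 0.23), with the H change unaltered at −1.31. The corresponding values of sr were −0.37 in H and 0.45 in M with the trend removed, and −0.38 in H and 0.31 in M without those libraries. For both genes the M change and the comparison at RNA-1 thus shrank but kept their sign. The H change moved little with the trend removed, as did the comparison at RNA-2 (−0.54 for Hr38 and −0.52 for sr). Leaving out M RNA-1 libraries cannot alter either of these, since no M RNA-1 library enters them. The difference of H from M at RNA-1 was 1.14 for Hr38 and 0.30 for sr with the trend removed, and 1.28 and 0.16 without both libraries. Leaving out M RNA-1 replicate 2 alone moved the M change of sr to 1.13.

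Levels of neuronal RNA varied between head libraries and followed both genes only in part. The summed level of 10 neuron markers, which include elav, nSyb, Syt1 and brp, ran from 123057 to 126357 normalized counts in H RNA-2, 150871 to 189594 in H RNA-1, 120292 to 133740 in M RNA-2 and 96908 to 163776 in M RNA-1. In M the RNA-2 sums lay within the range of the RNA-1 sums. None of the 10 markers was at 0 in any head library. The mean log2 level of these markers correlated with Hr38 (r = 0.78, rho = 0.66) and with sr (r = 0.86, rho = 0.55) over the 12 head libraries, a description over libraries that share a normalization. That mean was lowest in M RNA-1 replicates 1 and 3 (12.80 and 12.57), which also had the length trend, against 13.34 to 13.74 in the others. Taken relative to that mean, Hr38 changed by −1.09 in H and 0.46 in M, and H exceeded M by 1.02 at RNA-1. The same measure gave −0.16 in H and 0.40 in M for sr, and 0.06 for H against M at RNA-1. Because whole heads were sampled, fewer neurons and less RNA per neuron cannot be told apart. The part of neuron content, or of the length trend, in these differences was not tested.

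**Figure D2:**
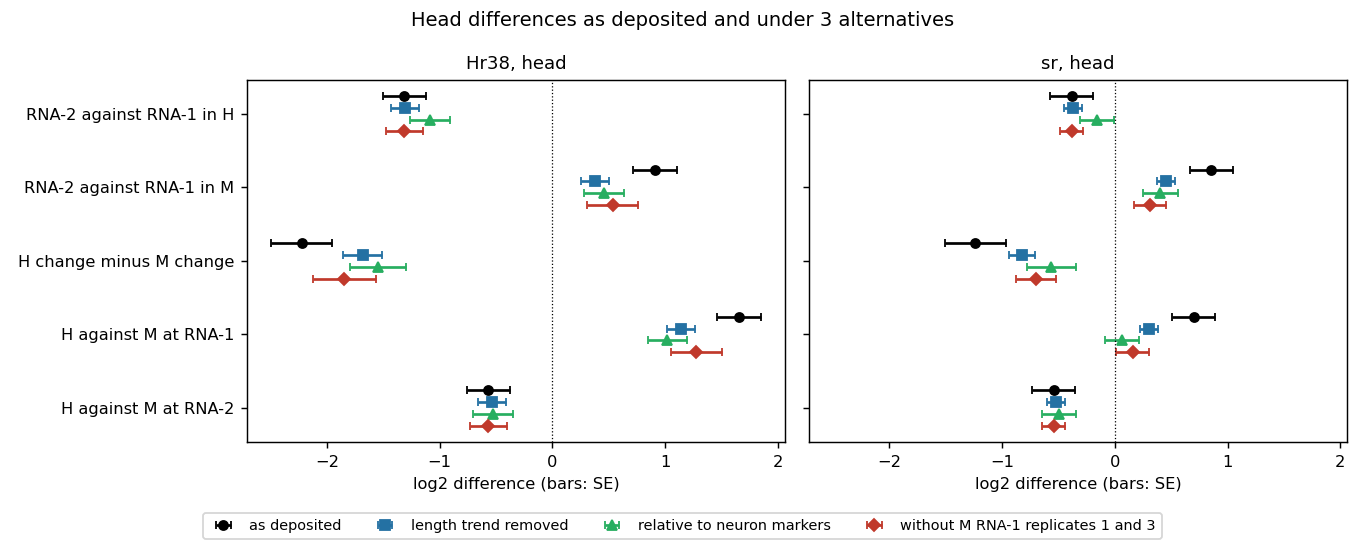
Head differences of Hr38 (left) and sr (right) on the log2 scale for 5 comparisons, as deposited and under 3 alternatives; points are differences and bars are SE. The H change of Hr38 lies between −1.31 and −1.09, and leaving out M RNA-1 libraries cannot alter it. The difference of H from M in sr at RNA-1 falls to 0.06 relative to neuron markers, against 0.70 as deposited.

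Markers of photoreceptors and of fat body also moved with time in head. All 5 photoreceptor markers (ninaE, the main rhodopsin of the fly eye, with Arr2, norpA, trp and inaD) fell between the time points in both diets, with a median of −1.49 in H and −1.54 in M. In head 11% of all genes were called higher and 8.56% lower in H, and 15.8% higher and 16.1% lower in M. The summed photoreceptor level was 535185 to 781279 normalized counts in H RNA-2 and 1995420 to 2543320 in H RNA-1 heads, against 550529 to 760504 in M RNA-2 and 2376380 to 2549270 in M RNA-1 heads. Of 6 fat body markers, which include the yolk protein genes Yp1 and Yp2, 3 fell and 1 rose in H, and 4 fell in M. Their summed level was 2328270 to 2876320 in H RNA-2 heads, against 5009630 to 6950050 in H RNA-1 heads, and 1755800 to 2000480 in M RNA-2 heads, against 6269610 to 8088510 in M RNA-1 heads. The 6 ovary markers summed to 1085 to 2881 normalized counts over the head libraries. The part of these markers in the Hr38 and sr values was not tested.

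In fat body Hr38 also stood highest in H RNA-1. It had 36.4, 83.1 and 49.7 normalized counts in the H RNA-2 libraries, against 169.7, 127 and 151 in H RNA-1, with no overlap. The M RNA-2 libraries had 68.6, 86.1 and 107, against 72.8, 53.8 and 55.8 in the M RNA-1 libraries, which overlapped. In H females Hr38 fell by 1.46 on the log2 scale (SE 0.31, limma with Benjamini-Hochberg adjustment over 10850 genes, adjusted p = 0.0114, lower in all 3 H RNA-2 libraries). Fitted to the 6 H libraries alone, or with a replicate block, the change was again −1.46 and was not called (limma adjusted p = 0.0622 and 0.0891). Of all genes tested, 8.76% were called lower in that comparison and 6.55% higher, a call being an adjusted p under 0.05. The change in M females was 0.50 (SE 0.31, limma adjusted p = 0.312), where 8.52% of genes were called higher and 5.07% lower. The H minus M change was −1.96 (SE 0.44, 95% interval −2.95 to −0.98) and missed the threshold (limma adjusted p = 0.0544), against 2.02% of genes called in either direction. H females exceeded M females by 1.28 at RNA-1 with no overlap (SE 0.31, limma adjusted p = 0.0888, 0.986% of genes called in either direction). At RNA-2 the difference was −0.68 (SE 0.31, limma adjusted p = 0.23, 0.599% called). Leaving out H RNA-2 replicate 2 brought these last 3 values past the threshold, at −2.28, 1.28 and −0.99 (limma adjusted p = 0.00988, 0.0444 and 0.0316). In that fit the genes called also numbered 2280, 157 and 2525 of 10850, against 219, 107 and 65 with all libraries.

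The libraries behind the call of Hr38 in H fat body differed in ovary RNA. The ovary markers summed to 12065, 351 and 12567 normalized counts in H RNA-2 replicates 1, 2 and 3, against 2162 to 5395 in H RNA-1, and Hr38 was lower in replicates 1 and 3 than in replicate 2. Without replicates 1 and 3 and M RNA-1 replicate 1, which had the highest sum after them, the change of Hr38 in H was −0.83 (SE 0.33, limma adjusted p = 0.212), with the lone H RNA-2 library assumed to vary like the other groups. In M fat body the ovary markers summed to 312 to 610 in M RNA-2, against 5447 to 7808 in M RNA-1. These groups did not overlap, and M RNA-1 also lay above H RNA-1. Of the 6 ovary markers 3 were called lower in M and 1 in H. The M change of Hr38, the H minus M change and the comparison at RNA-1 thus also set apart libraries that differed in ovary RNA. The 6 muscle markers summed to 182967 to 219984 in H RNA-2, against 193187 to 363383 in H RNA-1. The 10 neuron markers summed to 8202 to 8936 in H RNA-2, against 8386 to 8977 in H RNA-1. Of all genes in fat body, 8.76% were called lower in H and 5.07% in M. Of the 6 markers of fat body itself 5 fell in H, with a median of −1.36, and 5 fell in M, with a median of −1.17. Their summed level was 2545780 to 3216520 in H RNA-2, against 8587780 to 10302700 in H RNA-1, and 2286130 to 2899720 in M RNA-2, against 7515000 to 8202550 in M RNA-1. The 6 glia markers summed to 30877 to 41435 in H RNA-2, against 53696 to 56269 in H RNA-1, with 2 called lower, and to 38771 to 38911 in M RNA-2, against 45352 to 53674 in M RNA-1, with 2 called lower. The part of any of these markers in the Hr38 differences was not tested.

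The fat body values of sr had the same signs as in head, and none of the 5 comparisons passed the threshold. The H RNA-2 libraries had 158, 209 and 177 normalized counts, against 363, 199.95 and 298 in H RNA-1. The M RNA-2 libraries had 207, 228 and 258, against 197, 216 and 201 in the M RNA-1 libraries. H RNA-1 replicate 2 lay among the H RNA-2 libraries, so the H groups overlapped, as the M groups did. The 6 muscle markers summed to 363383, 193187 and 308947 in H RNA-1 replicates 1, 2 and 4, the same order as sr. In H RNA-2 replicates 1, 2 and 3 they summed to 182967, 219984 and 190546, again in the order of sr. Their sums were 181652 to 206854 in M RNA-2, against 223734 to 271660 in M RNA-1. The part of muscle RNA in the sr values was not tested. The log2 difference was −0.63 in H (SE 0.22, limma adjusted p = 0.083) and 0.17 in M (SE 0.22, limma adjusted p = 0.636). H minus M change was −0.80 (95% interval −1.48 to −0.11, limma adjusted p = 0.174). H differed from M by 0.44 at RNA-1 (limma adjusted p = 0.355) and by −0.35 at RNA-2 (limma adjusted p = 0.343). Without H RNA-1 replicate 2 the H change of sr was −0.86 (limma adjusted p = 0.0172), and without H RNA-2 replicate 2 it was −0.73 (limma adjusted p = 0.0448).

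**Figure D3:**
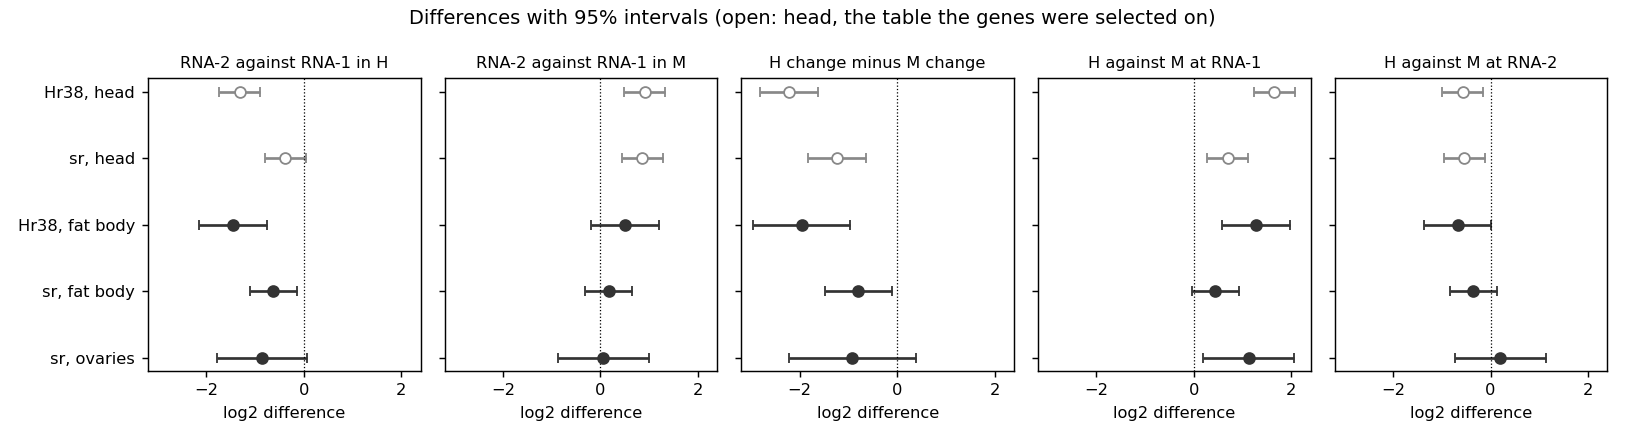
Differences of Hr38 and sr on the log2(value + 1) scale with 95% intervals for 5 comparisons, in head (open, selected on the head table and untested), fat body and ovaries. The head intervals take no account of that selection and are no test. The H change of Hr38 is −1.31 in head and −1.46 in fat body, and the intervals of sr are widest in ovaries.

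In ovaries both genes were near the lower end of detection. Hr38 had 1.40, 1.08 and 5.12 normalized counts in H RNA-2, 4.00, 9.20 and 4.18 in H RNA-1, 1.18, 3.37 and 2.16 in M RNA-2 and 1.28, 2.27 and 1.04 in M RNA-1, under the minimum of 10 in at least 3 libraries, and was not tested. The sr gene passed that minimum, with 9.18, 15.1 and 24.3 in H RNA-2 and 37.0, 27.6 and 21.7 in H RNA-1, against 10.8, 15.1 and 13.3 in M RNA-2 and 16.6, 9.13 and 12.4 in M RNA-1. H RNA-1 was thus the highest group of sr in ovaries, and did not overlap M RNA-1 or M RNA-2. H differed from M by 1.12 at RNA-1 (SE 0.43, limma adjusted p = 0.0711, 25% of 9438 genes called) and by 0.20 at RNA-2 (limma adjusted p = 0.997, 0.0318% called). The change between the time points was −0.86 in H (limma adjusted p = 0.115, 47.8% called) and 0.06 in M (limma adjusted p = 0.931, 20.4% called). Without H RNA-2 replicate 3 the H change was −1.19 (limma adjusted p = 0.0494). The H minus M change was −0.92 (limma adjusted p = 0.41), and 0% of genes were called by limma, with 1746 at an unadjusted p under 0.05. The 6 muscle markers were also highest in H RNA-1 ovaries, with sums of 52501 to 56860, against 38541 to 45321 in H RNA-2. Their sums were 34697 to 46489 in M RNA-2, against 33893 to 38969 in M RNA-1. The 6 fat body markers summed to 54356 to 88558 in H RNA-2 ovaries, against 387349 to 544224 in H RNA-1, and to 43310 to 88886 in M RNA-2, against 167094 to 316779 in M RNA-1. The part of either in the sr values was not tested.

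Levels were compared between the genes as a share of the library total per kilobase of canonical transcript (CPM per kilobase, from normalized counts), on which scale Hr38 was at 0.667 to 3.17 in head, 0.0869 to 0.330 in fat body and 0.00209 to 0.0172 in ovaries. On the same scale sr was at 1.23 to 3.49 in head, 0.465 to 0.945 in fat body and 0.0239 to 0.0942 in ovaries. The ranges of the tissues did not overlap for either gene, with head highest and ovaries lowest. In every fat body and ovary library sr was above Hr38 per kilobase. In head the mean level of Hr38 on this scale was 1.25 in H RNA-2, 2.77 in H RNA-1, 1.90 in M RNA-2 and 0.850 in M RNA-1. The mean of sr was 2.31 in H RNA-2, 2.70 in H RNA-1, 3.43 in M RNA-2 and 1.65 in M RNA-1, so H RNA-1 was the group in which the mean of Hr38 reached that of sr.

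The ratio of Hr38 to sr within a library does not depend on how libraries are scaled to each other, and it set H RNA-1 apart in head. The ratio of normalized counts was 0.662, 0.820 and 0.684 in H RNA-2 heads, against 1.29, 1.47 and 1.35 in H RNA-1 heads. It was 0.610, 0.727 and 0.888 in M RNA-2 heads, against 0.770, 0.630 and 0.726 in M RNA-1 heads. The 9 libraries outside H RNA-1 thus shared a range of 0.610 to 0.888, and M RNA-1 replicates 1 and 3 lay within it. In fat body the ratio was 0.231, 0.398 and 0.280 in H RNA-2, against 0.467, 0.634 and 0.508 in H RNA-1, and it was 0.331, 0.377 and 0.413 in M RNA-2, against 0.370, 0.249 and 0.278 in M RNA-1. H RNA-1 was again above all other libraries.

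Across the 12 head libraries log2 levels of sr and Hr38 correlated with r = 0.78 and rho = 0.73. Without the 2 libraries farthest from the median of Hr38, both from H RNA-1, r was 0.80. Across the 12 fat body libraries r was 0.85 and rho 0.74, and r was 0.72 without the 2 farthest. Deviations from the group means gave r = 0.77 in head and 0.66 in fat body, so libraries of 1 group that were high in Hr38 tended to be high in sr. With the length trend removed r was 0.61 in head and 0.88 in fat body. These are descriptions over libraries that share their normalization and groups.

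**Figure D4:**
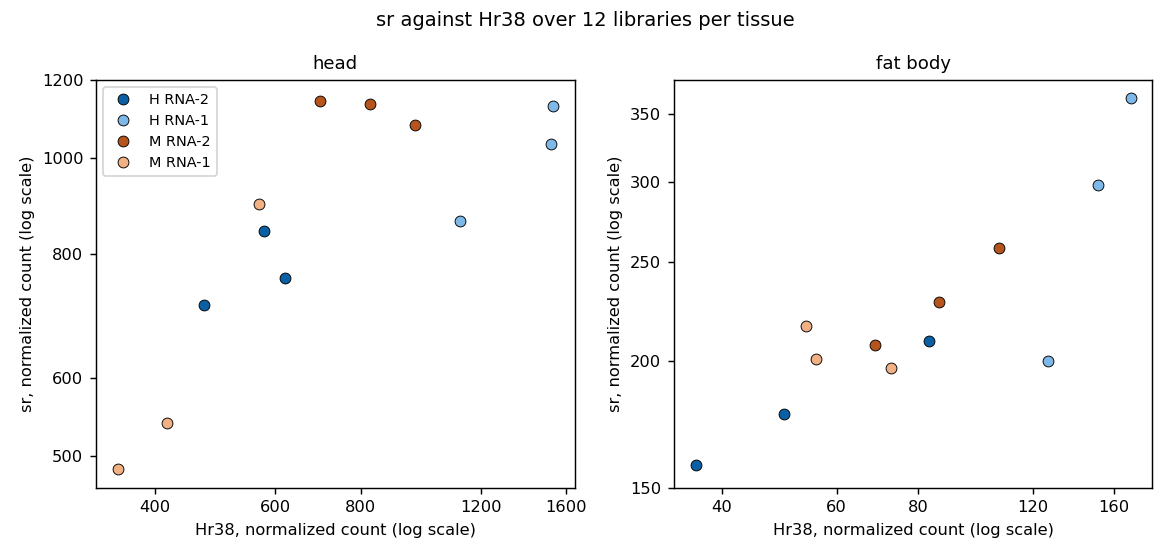
Normalized counts of sr against Hr38 in the 12 head libraries (left) and the 12 fat body libraries (right), on log axes, coloured by group. The 3 H RNA-1 heads lie to the right, at 1117 to 1529 of Hr38, while their sr (865 to 1129.7) overlaps that of M RNA-2 and of M RNA-1.

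Among 5 other transcription factor genes of this class, 3 rose in H and 1 fell, with a median of 0.48 against −0.01 over all genes, and in M 3 rose and 0 fell, with a median of 0.61 against 0.02. The shares of all head genes called were 11% higher and 8.56% lower in H, and 15.8% higher and 16.1% lower in M. Ets21C and kay were called in both diets. Ets21C, an ETS-domain factor, had a mean (SD) of 1990 (291) in H RNA-2 and 426 (56.8) in H RNA-1 heads, and 2204 (270) in M RNA-2 and 622 (98.7) in M RNA-1 heads. It rose by 2.22 in H (limma adjusted p = 5.7e-06) and 1.83 in M (limma adjusted p = 2.42e-05). The fly Fos gene kay rose by 0.50 in H (limma adjusted p = 0.00637) and 0.61 in M (limma adjusted p = 0.00223). The fly Jun gene Jra rose in H by 0.44 (limma adjusted p = 0.00128), with 0.18 in M (limma adjusted p = 0.0698), and Atf3 rose in M by 0.63 (limma adjusted p = 0.0167), with 0.48 in H (limma adjusted p = 0.0635). In H the zinc finger factor gene cbt fell by 0.38 (limma adjusted p = 0.0437), with −0.26 in M (limma adjusted p = 0.108). None of the 5 was called for the H minus M change, where 0.152% of genes were, but 2 were without M RNA-1 replicate 2, a fit in which 3587 of the 11197 genes were called, against 17 with all libraries. The fall of cbt in H was lost with 8 of the 12 libraries when each was left out in turn.

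Transcripts reported to be induced by neuronal activity in flies split into those that rose in both diets and those that fell in H. Of 7 such genes measured, 3 rose and 4 fell in H, where 11% of all head genes were called higher and 8.56% lower. In M 3 rose and 0 fell, where 15.8% were called higher and 16.1% lower. Arc1 and Arc2, whose proteins resemble retroviral capsid proteins, rose by 2.59 and 1.91 in H (limma adjusted p = 0.000123 and 0.00724) and by 1.71 and 1.51 in M (limma adjusted p = 0.0022 and 0.02). CG13868 rose by 0.69 in H and 0.48 in M. Those that fell in H were CG14186, CG17778, CG11221 and CG8910. CG14186 came closest to the pattern of Hr38. It had 3386 (542) normalized counts in H RNA-2 and 6066 (672) in H RNA-1, and 4231 (334) in M RNA-2 and 3827 (796) in M RNA-1. In H it fell by 0.85 (limma adjusted p = 0.00337), had a change of 0.16 in M (limma adjusted p = 0.447) and was higher in H than in M at RNA-1 by 0.68 (limma adjusted p = 0.0457), where 0.643% of genes were called higher and 2.75% lower. Those shares, 72 higher and 308 lower genes, depend on single libraries: leaving out M RNA-1 replicate 2 gave 2477 and 2216, and leaving out M RNA-1 replicate 1 gave 1 and 9. In H the changes of CG17778, CG11221 and CG8910 were −0.65, −0.55 and −0.43 (limma adjusted p = 6.25e-05, 0.0118 and 0.0252), against −0.18, 0.01 and 0.14 in M. H minus M was between −1.01 and −0.47 for these 4 genes and was called in none of them (limma adjusted p = 0.0799 to 0.209), although 4 genes of the list were called without M RNA-1 replicate 2, among the same 3587 of all genes. At RNA-2 no member of either list was called between H and M, where 0.196% of genes were. Without M RNA-1 replicates 1 and 3, the list had 0 calls at RNA-1 and 0 genes that rose in M. It also had 0 calls higher in H at RNA-1 in 10 of the 12 fits with a library left out, and without H RNA-1 replicate 1 or H RNA-2 replicate 4 it had 2 that fell in H.

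**Figure D5:**
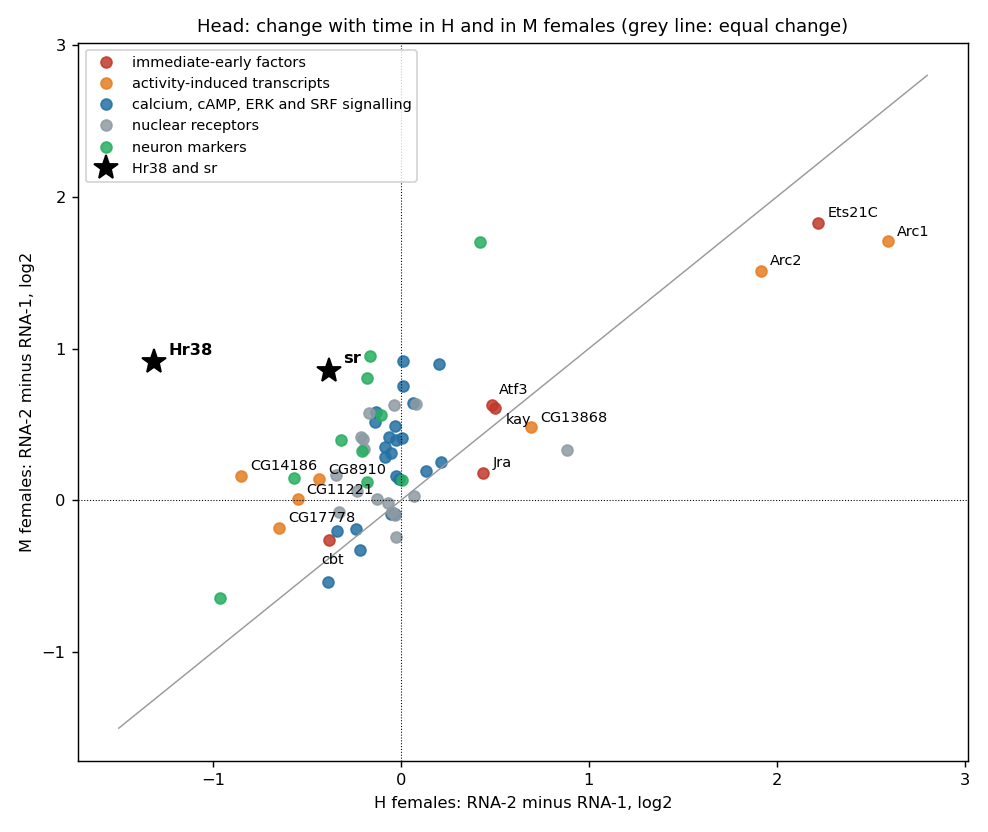
Log2 change between RNA-2 and RNA-1 in head, in H females (horizontal axis) and M females (vertical axis), for Hr38 and sr (stars) and for 5 gene lists; the grey line marks equal change. Ets21C, Arc1 and Arc2 lie near the line in the upper right, Hr38 (−1.31, 0.91) and sr (−0.38, 0.86) in the upper left, and CG14186 (−0.85, 0.16) between.

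Genes of the calcium, cyclic AMP, ERK and serum response factor pathways, which act upstream of immediate-early transcription, were also counted in head. Of 23 such genes 1 rose and 2 fell in H, with a median of −0.03, and 8 rose and 1 fell in M, with a median of 0.31. Of all head genes 11% rose and 8.56% fell in H, and 15.8% rose and 16.1% fell in M. The members that rose in M included nej, the fly CBP coactivator (0.92, limma adjusted p = 0.0302), Mrtf, the serum response factor coactivator (0.90, 0.0208), CRTC, a CREB coactivator (0.75, 0.0195), CanA-14F, a calcineurin catalytic subunit (0.64, 0.0436), CaMKII, a calcium-dependent kinase (0.51, 0.0428), and CrebB, the fly CREB (0.41, 0.0179). CanB, a regulatory calcineurin subunit, had −0.39 in H (limma adjusted p = 0.0158) and −0.54 in M (limma adjusted p = 0.00261). Without M RNA-1 replicates 1 and 3, 0 of the 23 were called higher in M, and without M RNA-1 replicate 2 alone 16 were; with each library left out in turn this count ranged from 0 to 16. The H minus M change was called in 0 of the 23, and in 12 without M RNA-1 replicate 2, the same fit in which 3587 of all genes were called. Of 16 other nuclear receptor genes, 0 were called in H heads and 2 in M heads, Hr39 (0.64, limma adjusted p = 0.032) and ftz-f1 (0.63, limma adjusted p = 0.0339), and these calls were also lost without those libraries. The Hr38 partner usp had group means of 3708 normalized counts in H RNA-2, 3537 in H RNA-1, 3533 in M RNA-2 and 3460.5 in M RNA-1 heads (SD 56.4 to 243), with no comparison called.

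Genes tied to stripe in tendon cells rose or were not called in head with time. Of 8 such genes 2 rose in H and 4 rose in M, and none fell. In H 11% of all head genes were called higher and 8.56% lower, and in M 15.8% and 16.1%. The slow gene, whose product surrounds tendon cells, rose by 2.04 in H (limma adjusted p = 6.5e-07) and 1.49 in M (limma adjusted p = 7.3e-06), and differed by −0.48 between H and M at RNA-1 (limma adjusted p = 0.0267). Tsp, the fly thrombospondin of muscle attachment sites, rose by 0.72 in H (limma adjusted p = 0.00214), with 0.25 in M (limma adjusted p = 0.142). The cytoskeletal linker gene shot and the RNA-binding protein gene how rose in M by 1.11 and 0.81 (limma adjusted p = 0.0135 and 0.0114), with 0.28 and 0.42 in H (limma adjusted p = 0.566 and 0.164). Without M RNA-1 replicate 1, 2 genes of this list rose in M, and with each library left out in turn this count ranged from 2 to 6. Of 4 genes tied to Hr38 in cuticle and glycogen metabolism, 2 were called higher and 1 lower in H, and 1 higher and 1 lower in M. A fall was thus called in both diets, and in M that count ranged from 0 to 1 with a library left out. The tyrosine hydroxylase gene ple rose by 1.80 in H and 1.94 in M (limma adjusted p = 4.06e-05 and 3.7e-05). In H Ddc, the dopa decarboxylase gene, fell by 0.51 (limma adjusted p = 0.00969). Acp65Aa, an adult cuticle protein gene, had 122 (31.6) normalized counts in H RNA-2 and 4.34 (3.67) in H RNA-1, and 187 (90.7) in M RNA-2 and 71.4 (55.2) in M RNA-1. It rose in H by 4.72 (limma adjusted p = 0.000205) and differed by −3.71 between H and M at RNA-1 (limma adjusted p = 0.0155), so its H change was opposite in sign to that of Hr38. Without M RNA-1 replicate 1 or H RNA-1 replicate 2 the list had 0 genes called lower at RNA-1.

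In fat body 2 of the 5 immediate-early factor genes fell in H and 2 others rose in M. Of all fat body genes, 8.76% were called lower in H and 8.52% higher in M. Those that fell in H were cbt (−0.77, limma adjusted p = 0.00164) and Atf3 (−0.50, limma adjusted p = 0.0429), with −0.32 and 0.18 in M, and in 8 of the 12 fits with a library left out only 1 gene was called. Those that rose in M were Ets21C, by 1.28, and Jra, by 0.27 (limma adjusted p = 0.0495 each), with −0.59 and −0.20 in H, and both calls were lost in 8 of the 12 such fits. Ets21C had 299 (79.5) normalized counts in H RNA-2, 441 (50.3) in H RNA-1, 587 (332) in M RNA-2 and 224 (60.5) in M RNA-1. The H minus M change was called in none of the 5 (limma adjusted p = 0.0575 for Jra and 0.0899 for Ets21C), and in 4 of the 5 without H RNA-2 replicate 2, where 2280 of all genes were called, against 219. Arc1, Arc2 and CG13868 rose in both diets in fat body as in head, by 1.08, 0.61 and 0.82 in H and by 1.13, 1.30 and 0.59 in M. CG14186 was far lower in fat body, with 81.7 (19.6), 103 (31.9), 126 (22.4) and 77.5 (1.47) normalized counts in H RNA-2, H RNA-1, M RNA-2 and M RNA-1, and no comparison was called. Of 14 other nuclear receptor genes 2 fell in H, svp (−0.61) and Eip78C (−1.19; limma adjusted p = 0.00257 and 0.0289), and 2 fell in M, EcR (−0.67) and Eip78C (−1.43; limma adjusted p = 0.0102 and 0.0162), against 8.76% of all genes called lower in H and 5.07% in M. With a library left out these counts ranged from 1 to 3 in H and from 1 to 4 in M. The usp gene was not called in any fat body comparison.

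Clock genes were examined because the labels and methods read here give no hour at which females were collected. In head per, a core clock gene, had 2799.6 (297) normalized counts in H RNA-2, 1863 (155) in H RNA-1, 2764 (249) in M RNA-2 and 2691 (339) in M RNA-1. It rose in H by 0.58 (limma adjusted p = 0.00409) and differed by −0.53 between H and M at RNA-1 (limma adjusted p = 0.0362). In H its activator Clk fell by 0.61 (limma adjusted p = 0.00684). Of the 9 clock genes 1 rose and 1 fell in H heads, where 11% of all genes were called higher and 8.56% lower. In M heads 0 rose and 1 fell, where 15.8% were called higher and 16.1% lower. In fat body per and vri were not called, and 2 of the 9 fell in H, where 8.76% of all genes were called lower. In M fat body 2 rose and 1 fell, where 8.52% were called higher and 5.07% lower. In ovaries 7 of the 9 fell and 1 rose in H, where 22.8% of all genes were called lower and 25% higher, and 1 fell and 1 rose in M, where 10.6% were called lower and 9.76% higher. At RNA-1 5 were higher and 1 lower in H than in M ovaries, against 11.5% and 13.5% of all genes. The part of these genes, or of sampling time, in the Hr38 and sr values was not tested.

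The genes most like Hr38 over the 12 head libraries were sought among 9383 genes averaging 100 normalized counts or more, by Pearson's r of log2 values. The 5 highest were svr (r = 0.93), a carboxypeptidase gene, SuUR (r = 0.92), a regulator of underreplication, CG45101 (r = 0.92), CG44247 (r = 0.91) and alt (r = 0.90). With the length trend removed these fell to between 0.47 for svr and 0.87 for CG44247. SuUR and CG45101 held the same value in every library, so they count as 1 measurement. All 5 had their highest group mean in H RNA-1, and 4 had their lowest in M RNA-1, the exception being CG44247, whose lowest was in H RNA-2. CG14186 held rank 9 in this order (r = 0.89) and sr rank 215. The 5 genes most like sr were jeb (r = 0.97), a ligand of the Alk receptor, Dhc93AB (r = 0.96), a dynein heavy chain gene, CG10019 (r = 0.95), orb (r = 0.95) and CG2217 (r = 0.95). Of these, orb fell to r = 0.01 and jeb to 0.62 with the length trend removed, while CG2217 had 0.94. Hr38 held rank 1084 in likeness to sr. Among the 50 genes most like each, 1 gene was shared, Neto, which encodes an auxiliary subunit of glutamate receptors. Likeness over 12 libraries in 4 groups is a description and carries no test.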

How the data were processed

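The 36 stranded mRNA-seq libraries were grouped by tissue, diet and time as labelled. The signal values are normalized counts that the authors made per tissue by dividing kallisto estimates by size factors. The submitters' processing notes name kallisto 0.46.1, BDGP6, R 4.0.1 and DESeq2 1.28.1. The deposited log2 fold changes, p-values and lists of differentially expressed genes are the authors' own comparisons and were not used. Whole reads could not be recovered from the values, so depth is known only as normalized totals and no count model was fitted.

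A gene entered the test if 3 or more libraries of its tissue reached 10 normalized counts, which left 11197 genes for head, 10850 for fat body and 9438 for ovaries. Log2(value + 1) values, which understate changes of low genes, were fitted with limma 3.58.1 (R 4.3.3, statmod 1.5.0) over the 4 groups of a tissue, with trended prior variances and robust estimation. A call was a Benjamini-Hochberg adjusted p below 0.05 over all genes of the tissue. The fit was tested on simulated data. The p-values measure the spread between pools of females. Gene models came from BDGP6.54, and 121 of 122 listed symbols were matched. Only some called members of the lists were named, at most 6 per comparison, with those that a sentence on roles needed, and the 5 genes most like each of Hr38 and sr. Of a further list of 9 heat shock genes only Hsp83 is described, in fat body. In head 7 of the 9 were called higher and 0 lower in H, against 11% and 8.56% of all genes. In M heads 6 were called higher and 1 lower, against 15.8% and 16.1%. A length trend was removed by lowess (span 0.4). Alternatives changed the variance model, scaling, filter, pseudocount, libraries and replicate block. The members and lists were chosen with earlier results of these data known, and the length, neuron marker and joint-library alternatives were added after seeing the data.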

Additional observations from a re-analysis of the deposited data

Results flagged for a closer look

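In head, Hr38 and sr were higher at RNA-2 than at RNA-1 in all M libraries and lower in all H libraries, with no overlap of the groups, and the H minus M change was −2.22 for Hr38 and −1.24 for sr. These differences were not tested, since both genes were selected on the head table. In fat body Ets21C showed the same opposite signs without overlap, with an H minus M change of −1.87 that did not pass the threshold (limma adjusted p = 0.0899). Hsp83, the fly Hsp90 gene, was called for the H minus M change in fat body, at −0.58 (limma adjusted p = 0.0405). That call is lost without M RNA-1 replicate 2 or H RNA-1 replicate 4, or with a replicate block, fits in which 0 genes are called. Hsp83 had 88523 (3665) normalized counts in H RNA-2 and 117492 (7277) in H RNA-1, and 85723 (7442) in M RNA-2 and 76023 (3338) in M RNA-1. In ovaries Lsd-1, a lipid droplet protein gene, was higher at RNA-2 in H and lower in M without overlap, with an H minus M change of 0.35 (limma adjusted p = 0.132). Groups of 3 were not searched for outlying libraries.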

How the results depend on the processing

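Of 565 values of the 25 differences of Hr38 and sr under alternatives, 561 kept their direction, and the 4 that turned were of sr in ovaries. Many of these values could not move. A changed variance model or filter, or a left-out library from outside the comparison, leaves a difference as it was. The count is therefore no measure of how firm the differences are. In head, dividing by library totals gave M changes of 1.18 for Hr38 and 1.12 for sr. Removing the length trend gave 0.38, −1.68 and 1.14 for Hr38 in M, for H minus M and for H against M at RNA-1, and 0.45, −0.82 and 0.30 for sr. The same measures relative to neuron markers were 0.46, −1.55 and 1.02 for Hr38 and 0.40, −0.56 and 0.065 for sr. Without M RNA-1 replicates 1 and 3 they were 0.53, −1.85 and 1.28 for Hr38 and 0.31, −0.70 and 0.16 for sr. With each library left out in turn, they ranged for sr from 0.68 to 1.13, −1.51 to −1.07 and 0.52 to 0.97. In fat body the fall of Hr38 in H was called in 20 of 23 alternatives (limma adjusted p = 0.00301 to 0.212): it was −1.46 and not called with only the 6 libraries of the comparison (0.0622) or with a replicate block (−1.46, 0.0891), and −0.83 without the 3 libraries richest in ovary RNA. Its H minus M change was called at −2.52 with quantile normalization and −2.23 with the length trend removed, and ranged from −2.28 to −1.69 with a library left out. Its difference of H from M at RNA-1 was called at 1.70 with quantile normalization and ranged from 1.19 to 1.42, and at RNA-2 from −0.99 to −0.41. The H change of sr ranged from −0.86 to −0.44 in fat body and −1.19 to −0.53 in ovaries. In ovaries the M change of sr ranged from −0.14 to 0.26. H against M in sr was called at 1.12 at RNA-1 without trend or robust variances, and at RNA-2 was −0.40 with quantile normalization and −0.12 to 0.53 with a library left out. The cause of these shifts was not tested.

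Libraries sharing a replicate number were not regularly alike. Of 15 such pairs per tissue, 5 of ovaries, 6 of fat body and 1 of head correlated above 0.1. Mean r of these pairs was nevertheless above that of other pairs: 0.080 against −0.031 for ovaries and 0.056 against −0.022 for fat body. For head it was 0.010 against −0.0038. Whether libraries of the same number had been handled together was not tested. The block lowered the genes called higher in H heads to 755, against 1227 without it, and took those called for H minus M in fat body, Hsp83 included, to 0, against 219. Division by totals shifted the median gene by 0.17 in H heads, 0.27 in M heads and 0.33 in H fat body, and turned the calls to 2377 higher and 505 lower in H heads, 4600 and 607 in M heads and 3277 and 427 in H fat body, against 1774 and 1807 in M heads and 711 and 951 in H fat body. Genes called for H minus M in head numbered 17, and 3587 without M RNA-1 replicate 2.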
